A study of Mus musculus with 22 samples.

Results

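Solute carriers are membrane proteins that move sugars, lactate, amino acids, nucleosides, ions and metabolites across the plasma membrane or the membranes of organelles. The genes described here are the 182 solute carrier genes expressed in bone marrow-derived macrophages, out of 38293 gene rows in all. They were chosen by symbol and by level: 389 rows carried a symbol of the Slc or Slco families, and a gene was kept where at least 50 normalized reads were counted in 2 or more of the 14 libraries of the 6 h and 12 h table. By this level 203 rows were left out, and 4 rows that passed it (Slc40a1, Slc11a1, Slc11a2 and Slc7a2) were set aside by name. Of the 182 genes, 135 reached 50 normalized reads in all 14 libraries and 47 in fewer, 5 of them in exactly 2 libraries, so that a gene could enter through a single group in which it was high. The nearest gene outside was Slc13a1, with 45.7 normalized reads in its second-highest library, and the nearest inside was Slc6a19, with 50.3. Sorted by substrate, 10 genes were sugar carriers, 5 lactate and monocarboxylate carriers, 25 amino acid or peptide carriers and 46 ion carriers. Carriers of nucleosides or related compounds, called nucleoside carriers below, numbered 5. A further 36 belonged to the mitochondrial carriers, 8 to the carriers of vitamins or cofactors and 21 to those of lipids or organic ions. Another 18, all Slc35 genes, were grouped as nucleotide sugar carriers, though this substrate was not shown for each. The substrate of 4 genes was taken as unsettled, and 4 genes (Slc9a3r1, Slc4a1ap, Slc7a6os and Slc2a4rg-ps) bear a carrier's name without being carriers.

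All libraries came from macrophages of Il10-/- mice on the C57BL/6 background, 6 to 12 weeks old, grown from marrow for 7 to 8 days with L929 supernatant, so that the control cells, too, lacked IL-10 of their own. At 3 h, 4 groups were sequenced: untreated control, 100 ng/ml lipopolysaccharide (LPS, the Toll-like receptor 4 ligand of Gram-negative bacteria), 100 ng/ml IL-10, and both together. A second table, normalized separately, held LPS, IL-10 and both at 6 h and at 12 h with 1 shared untreated control whose harvest time is not given, which made 7 groups. Each group had 2 libraries, and values given in pairs below are these libraries in order. Nothing in the labels says whether they came from separate mice or cultures, so p-values measure only the spread between these libraries. The comparisons ask what LPS did to carrier transcripts, and how added IL-10 changed that.

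Macrophages that sense LPS turn towards aerobic glycolysis, take up glucose and release lactate, and they import cystine in exchange for glutamate to make glutathione. Zinc and copper carriers set how much metal is offered to, or kept from, ingested bacteria, and Slc39a14 is a known target of inflammatory cytokines in liver. IL-10 signals through STAT3 and limits the LPS response.

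The promoters of 3 carriers are printed. Slc28a2 rose with LPS and at 3 h again with IL-10, and Slc7a11 rose with LPS and fell with IL-10 at the later times. These 2 were picked because they hold a STAT motif match, so their matches are a choice and not a result. Slc16a1 was picked for the largest IL-10 change of any carrier in LPS-treated cells. The promoters of Slc16a1, Slc16a10 and Slc20a1, which also moved with IL-10, held no STAT match. Each run is the 250 bases before the RefSeq gene start on GRCm38.p6, written 5′ to 3′ on the strand of the gene. Capitals mark a match to the STAT motif TTCNNNGAA in the first 2 sequences, and in the last a match to the antioxidant response motif TGACNNNGC read on the other strand.
Slc28a2, chr2:122426185-122426434, plus strand: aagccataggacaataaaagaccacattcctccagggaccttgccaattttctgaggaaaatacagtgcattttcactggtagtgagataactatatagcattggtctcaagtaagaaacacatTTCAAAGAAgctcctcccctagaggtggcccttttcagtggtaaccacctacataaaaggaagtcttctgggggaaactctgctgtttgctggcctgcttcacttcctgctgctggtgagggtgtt
Slc7a11, chr3:50443614-50443863, minus strand: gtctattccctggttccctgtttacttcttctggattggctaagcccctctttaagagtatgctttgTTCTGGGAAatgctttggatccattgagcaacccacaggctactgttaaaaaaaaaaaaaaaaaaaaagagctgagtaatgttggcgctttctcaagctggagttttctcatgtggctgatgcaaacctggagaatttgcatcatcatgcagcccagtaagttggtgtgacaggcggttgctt
Slc16a1, chr3:104638414-104638663, plus strand: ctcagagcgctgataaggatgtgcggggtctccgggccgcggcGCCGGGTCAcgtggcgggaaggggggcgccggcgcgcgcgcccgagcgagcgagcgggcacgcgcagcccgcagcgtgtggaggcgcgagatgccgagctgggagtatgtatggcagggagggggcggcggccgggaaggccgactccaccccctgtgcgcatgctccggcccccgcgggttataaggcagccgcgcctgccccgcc
The match lay 126 to 118 bases before the start in Slc28a2, 183 to 175 bases in Slc7a11 and 207 to 199 bases in Slc16a1. RefSeq promoters were matched for 140 of the 182 genes. Searched on both strands, TTCNNNGAA was in 9 of these 140 (6.4%) and in 7.2% of all 27025 promoters in the table. TGACNNNGC was in 23 (16.4%) and in 10.1% of all, and the NF-kappa-B motif in 8 (5.7%) and 7.0%. A match describes letters in this window and no more.

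Depth ran from 9337222 to 31772075 reads per library. Macrophage markers were high in every library, with Csf1r between 8055.5 and 27619.9 normalized reads, while the T cell gene Cd3e and the fibroblast gene Col1a1 did not exceed 1.9. Some markers of other cells moved with LPS. The 4 T cell markers summed to 8.4 to 23.3 normalized reads without LPS and to 25.3 to 234.2 with it, mostly from Lck. The 5 dendritic cell markers, led by Xcr1, summed to 17.3 to 63.3 and 86.6 to 325.1, and the 5 stromal markers to 11.7 to 28 and 29.8 to 223.8. The part of such cells in the LPS results was not tested, and in bulk samples fewer cells of a type and less RNA per cell cannot be told apart. The libraries of a group stood apart at 12 h: Slc28a2 had 9184 normalized reads in the first LPS library and 18504 in the second. The control libraries of the 6 h and 12 h table differed along exon GC content (Spearman's rho -0.804 across 12688 genes for the second minus the first), and GC-rich carriers such as Slc2a6 (58.2% GC) were lower in the second.

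Per kilobase of exon, the most abundant carrier transcript of untreated cells was Slc25a5, an ADP/ATP carrier of the mitochondrial inner membrane, at 2705.5 normalized reads per kb in the 3 h control and 3417.9 in the later control. Slc6a6, the taurine carrier, came next at 3 h with 2128.1 per kb. With LPS at 6 h and 12 h the highest level was that of Slc15a3, a lysosomal histidine and peptide transporter, at 12089.7 and 12609.4 per kb. At 6 h Slc28a2, a concentrative purine nucleoside carrier, followed at 6929.1 per kb, and with IL-10 added it led at 8616.5. When the per-kb levels of all 182 genes were summed, amino acid carriers held 23.2% of the sum in the later control, 32.6% with LPS at 6 h, 37.0% with LPS at 12 h and 22.3% with LPS and IL-10 at 6 h. Slc15a3 alone held 1.8%, 15.5%, 17.7% and 9.0%, and the rest of the class 21.3%, 17.1%, 19.3% and 13.3%. Nucleoside carriers held 1.8%, 9.6% and 5.3%, and 14.4% with LPS and IL-10 at 6 h, of which Slc28a2 made up 0.2%, 8.9%, 4.6% and 13.6%. Mitochondrial carriers held 28.3%, 18.2% and 16.1% in the later control and with LPS at 6 h and 12 h. Their summed level was 12113.9, 14171.7 and 11486.8 per kb in these groups. At 6 h the share thus fell where the level on the authors' scaling did not, and at 12 h both were lower than in the control. On this scaling the 2 libraries of the later control totalled 14632292 and 16377752 normalized reads. Those with LPS at 6 h totalled 32877731 and 35469303. Relative to the library total, the 6 h level of the mitochondrial carriers was therefore lower than in the control.

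LPS moved carrier transcripts in both directions at every time. Tests were made with limma on log2(normalized reads + 1), with p-values adjusted over all genes of a table and a threshold of 0.05. At 3 h LPS raised 43 of 181 carrier genes and lowered 49, where 27.6% of all 12338 genes tested were higher and 25.9% lower. At 6 h, 51 of 182 were higher and 73 lower, beside 28.4% and 31.3% of all 12817 genes, and at 12 h 42 were higher and 56 lower, beside 23.7% and 23.8%. The share of the carriers that was lower was thus 27.1%, 40.1% and 30.8% at 3, 6 and 12 h. The median log2 change of the carriers was 0.01, -0.32 and -0.14 at the 3 times, and that of all genes 0.03, -0.04 and -0.02. Levels in the 6 h and 12 h table chose the genes, so its counts are a description. Scaling to equal library totals shifted the median of all genes by -0.58, -1.12 and -0.73 and gave 20 higher and 115 lower at 3 h, 16 and 123 at 6 h, and 19 and 100 at 12 h. The shares of all genes given here belong to the authors' scaling, and none is given beside these equal-total counts. These counts are thus no result about the carriers as a set. Levels above and changes below are relative to the authors' scaling unless another scaling is named.

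Of the 43 carriers higher at 3 h, 31 (72.1%) were higher at 6 h, which is 60.8% of the 51, where over all 12095 genes tested at both times these shares were 73.6% and 71.9%. Slc35d1, Slc38a1, Slc39a6, Slc43a3 and Slc7a1 were higher at 3 h and lower at 6 h, a switch that was not counted over all genes. Of the 49 lower at 3 h, 39 (79.6%) were lower at 6 h, which is 53.4% of the 73, beside 73.8% and 60.6% over all genes. Across all 14 comparisons, 24 of the 182 genes (13.2%) were called in none, among them Slc16a3, the lactate exporter of glycolytic cells. Of all 12095 genes tested at both times, 20.1% were called in none. That set also holds genes below the level asked of the carriers.

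**Figure D1:**
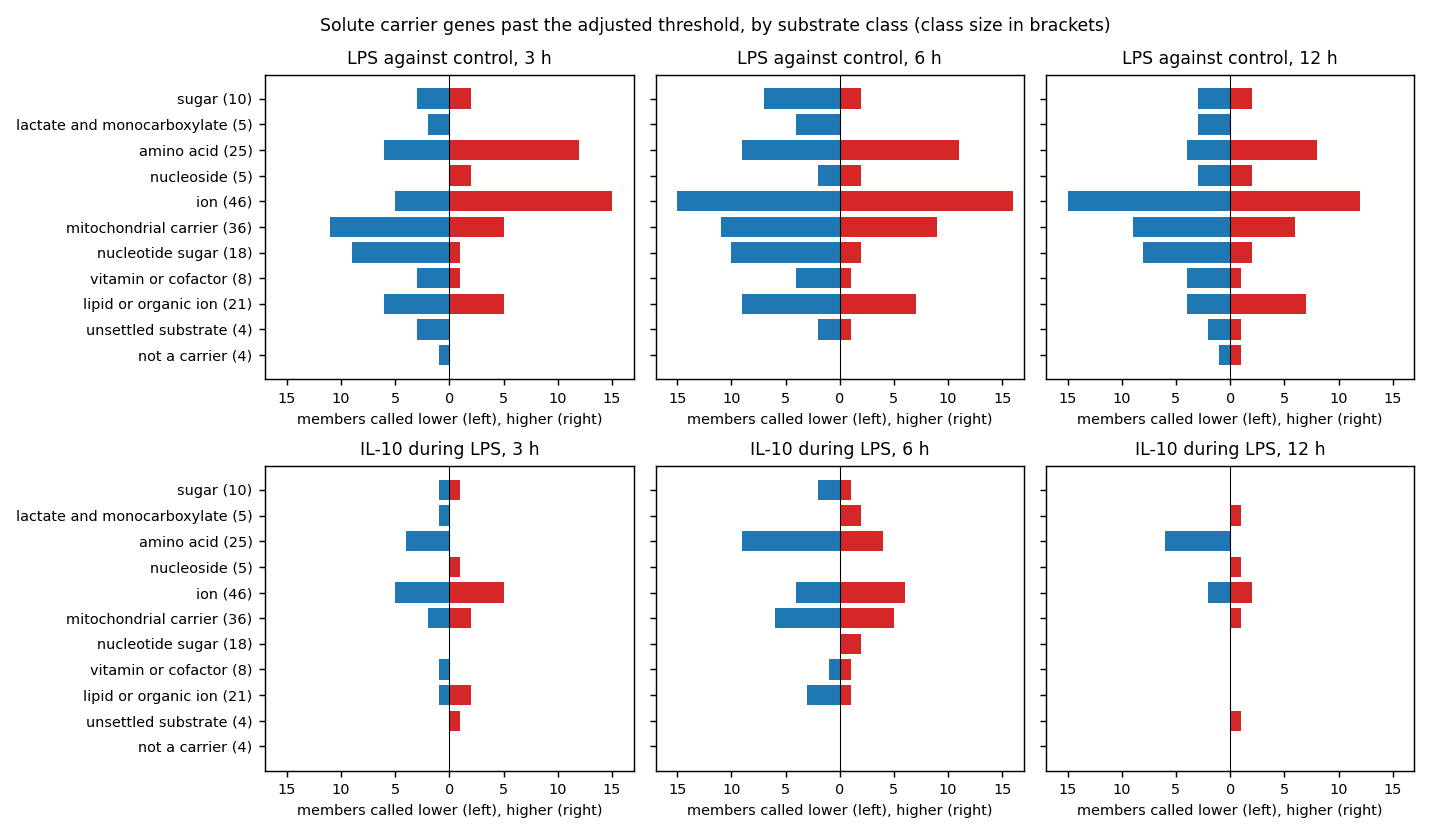
Number of solute carrier genes past the adjusted threshold in each substrate class (class size in brackets), lower to the left and higher to the right, for LPS against control (top row) and IL-10 added during LPS (bottom row) at 3, 6 and 12 h. With LPS at 6 h, 16 ion carriers were higher and 15 lower, and 10 of the 18 genes grouped as nucleotide sugar carriers were lower. Of all genes, 28.4% were higher and 31.3% lower.

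IL-10 added together with LPS changed fewer carriers. Against LPS alone, 12 of 181 were higher and 15 lower at 3 h, where 4.68% of all genes were higher and 4.92% lower. At 6 h, 22 of 182 were higher and 25 lower, beside 13.7% and 10.0%, and at 12 h 6 were higher and 8 lower, beside 2.68% and 2.23%. The zinc importer Slc39a14 was the only carrier called higher, and the phosphate importer Slc20a1 the only one called lower, at all 3 times by this fit. Calls at all 3 times were not counted over all genes. At equal library totals, which shifted the median of all genes by 0.31 at 6 h, the 6 h counts became 45 higher and 16 lower. No share of all genes at that scaling is given beside these counts. Single libraries weighed on the counts. At 3 h, 47 were called without either control, 13 without the first LPS library or the second with both agents, 11 without the second LPS library and 9 without the first with both. At 6 h, 16 were called without the first LPS 6 h library, 28 without the second and 14 without the second with both. At 12 h the count was 1 without the second library with both, 8 and 9 without the first and second LPS 12 h library, 5 without any 1 of the 4 IL-10 libraries, 7 without either LPS 6 h library and 9 without either 6 h library with both.

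IL-10 alone changed few carriers. At 3 h Slc28a2, Slc39a14 and the zinc importer Slc39a8 were higher and the aromatic amino acid carrier Slc16a10 lower than in the control, 3 and 1 of 181 beside 1.22% and 0.421% of all genes. The count was 15 without the first control library, 37 without the second and 2 without any 1 of the other 6. At 6 h limma called none of 182, beside 0.0624% of all genes higher and 0 lower; 7 had an unadjusted p under 0.05, edgeR called 0 and DESeq2 called 1. At 12 h none was higher and 4 were lower (Slc7a11, Slc16a10, Slc7a8 and Slc3a2), beside 1.01% and 0.546%. That count was 2 without either LPS 6 h library, either IL-10 6 h library or the second IL-10 12 h library, and 0 without the first IL-10 12 h library.

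**Figure D2:**
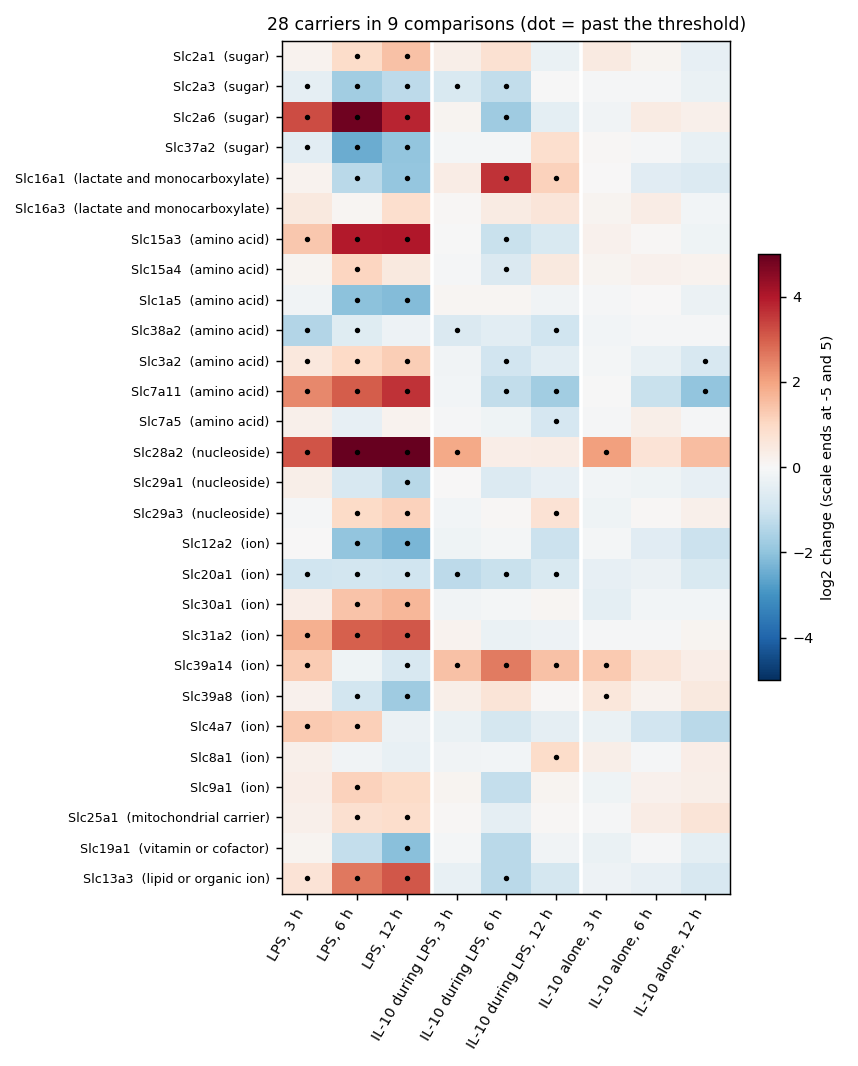
Fitted log2 changes of 28 carriers with known roles in macrophages or their metabolism (rows, with substrate class) for LPS against control, IL-10 during LPS and IL-10 alone at 3, 6 and 12 h; a dot marks a change past the adjusted threshold, and colours end at -5 and 5. The 28 were chosen with earlier results of these data known, so their counts are a description. With LPS, 9 of the 28 were higher and 4 lower at 3 h, 14 and 8 at 6 h, and 11 and 10 at 12 h. Over all genes, 27.6%, 28.4% and 23.7% were higher at these times and 25.9%, 31.3% and 23.8% lower.

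Among the sugar carriers, Slc2a6 rose strongly with LPS while most others fell or did not pass. Slc2a6 encodes GLUT6, a hexose transporter of intracellular membranes. It had 238.2 and 440.8 normalized reads in the 3 h control and 2886 and 3354 with LPS. In the later table it had 773.6 and 220.6 in the control, 14678 and 10144 with LPS at 6 h and 4578 and 7270 at 12 h. The LPS libraries lay above the control libraries of their table, and the log2 change was 3.26 ± 0.24 (SE), 4.88 ± 0.52 and 3.80 ± 0.52 at the 3 times (adjusted p = 3e-06, 2.3e-05 and 0.00024). With IL-10 during LPS at 6 h it stood at 5329 and 2348, a change of -1.79 ± 0.52 (adjusted p = 0.032) that missed the threshold without either LPS 6 h library or the second library with both (-2.05 to -1.20).

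The classical glucose importers moved less, and in opposite directions. Slc2a1, the basal importer GLUT1, had 822.8 and 1237 normalized reads in the 3 h control and 1100 and 1210 with LPS, so that the groups overlapped. At 6 h it had 2713 and 2376 with LPS against 1951 and 914.0, a log2 change of 0.93 ± 0.34 (adjusted p = 0.035) that turned to -0.215 at equal library totals and missed the threshold without the second control or either LPS 6 h library (0.38 to 1.02). At 12 h it was higher by 1.46 ± 0.34 (adjusted p = 0.005). Slc2a3, the high-affinity importer GLUT3, went the other way. It had 262.3 and 303.6 in the later control, 88.9 and 78.3 with LPS at 6 h and 41.6 and 29.5 with both, and the 3 groups did not overlap. LPS changed it by -0.43, -1.75 and -1.29 at the 3 times (adjusted p = 0.03, 8.6e-05 and 0.0011), the first lost without the second control or either LPS library. IL-10 during LPS changed it at 3 h by -0.75 and at 6 h by -1.23 (adjusted p = 0.0097 and 0.0047). The 3 h call was lost without any 1 of the 4 libraries compared (-0.80 to -0.69) and the 6 h call without the second library with both (-0.99).

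Slc37a2, a sugar phosphate exchanger of the endoplasmic reticulum abundant in macrophages, fell with LPS. It had 4672 and 4522 normalized reads in the later control, 795.8 and 868.0 with LPS at 6 h and 1692 and 819.5 at 12 h. Every LPS library lay below the controls, and the log2 change was -0.53 ± 0.08, -2.47 ± 0.28 and -1.96 ± 0.28 at the 3 times (adjusted p = 0.00043, 3.6e-05 and 0.00033). Of the 10 sugar carriers LPS raised 2 and lowered 3 at 3 h, beside 27.6% and 25.9% of all genes. It raised 2 and lowered 7 at 6 h, beside 28.4% and 31.3%, and 2 and 3 at 12 h, beside 23.7% and 23.8%. The median log2 change of the 10 sugar carriers at 6 h was -1.45, beside -0.04 for all genes.

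**Figure D3:**
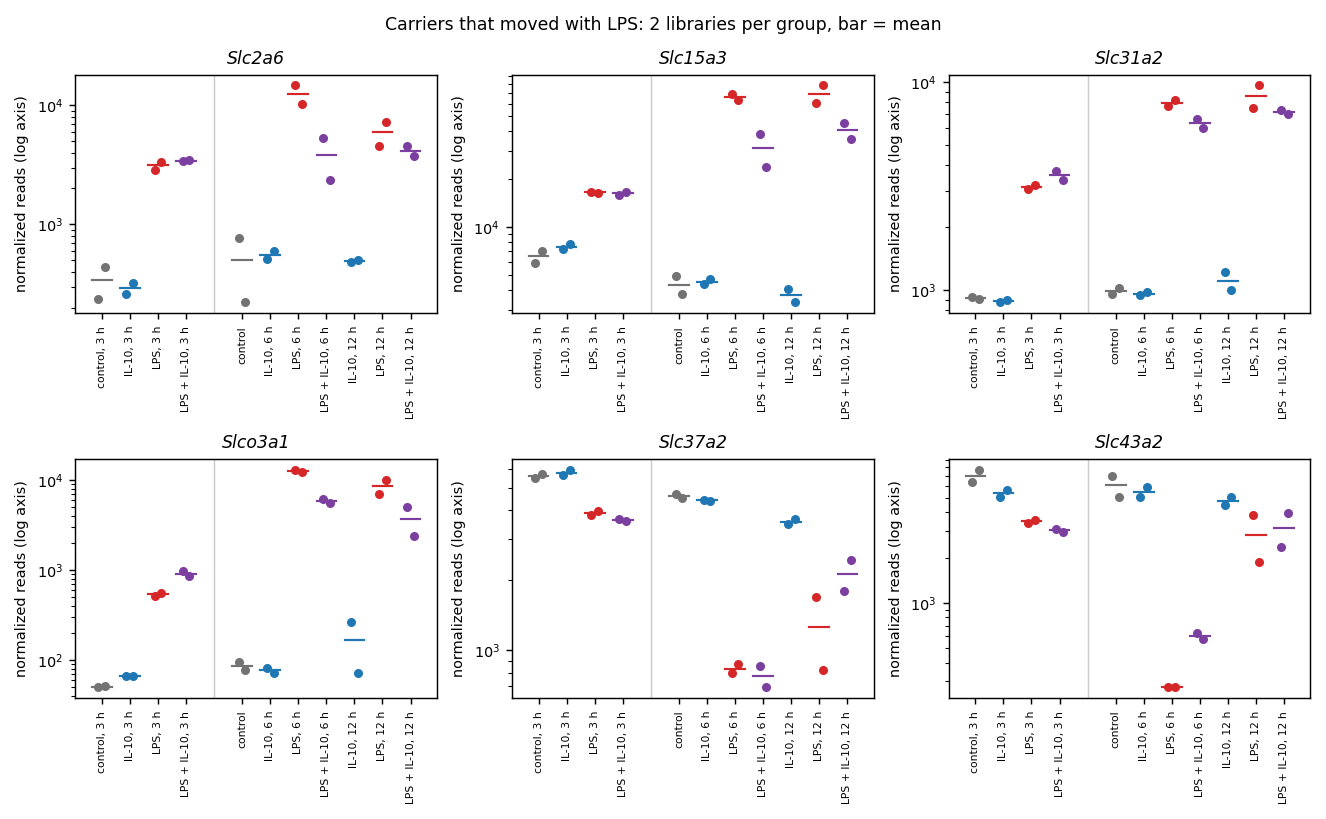
Normalized reads (log axis) of 6 carriers in each of the 22 libraries; points are libraries, bars group means, and the grey line separates the tables, which were normalized separately. Slc2a6, Slc15a3, Slc31a2 and Slco3a1 were higher, and Slc37a2 and Slc43a2 lower, in every LPS library than in every control library of the same table.

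The lactate and monocarboxylate carriers held the largest change that IL-10 made in LPS-treated cells. Slc16a1 encodes MCT1, the proton-linked carrier of lactate and pyruvate. It had 667.8 and 893.6 normalized reads in the later control, 253.7 and 359.0 with LPS at 6 h, 516.0 and 534.3 with IL-10 alone and 3272 and 4147 with both, so that the libraries with both lay above every other library of the table. LPS lowered it at 6 h by a log2 change of -1.35 ± 0.28 (adjusted p = 0.0018), and IL-10 during LPS raised it by 3.60 ± 0.28 (adjusted p = 4.5e-05). The interaction, the IL-10 effect with LPS minus that without, was 4.16 ± 0.40 (adjusted p = 0.00076). These 6 h calls held without any 1 of the 14 libraries.

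The IL-10 effect on Slc16a1 was smaller at the other times. At 3 h it had 1122 and 1123 normalized reads with LPS and 1413 and 1457 with both, a log2 change of 0.35 ± 0.12 that missed the threshold (adjusted p = 0.11). At 12 h it had 233.5 and 177.6 with LPS and 358.0 and 590.8 with both, a change of 1.17 ± 0.28 (adjusted p = 0.042) that was lost without any 1 of 11 of the 14 libraries (0.81 to 1.37); the call remained without either control or the first 12 h library with both. The 12 h effect minus the 6 h effect was -2.43 ± 0.40 (adjusted p = 0.021). That difference missed the threshold without the first LPS library of either time, either 6 h library with both, or the first 12 h library with both (-2.60 to -2.07).

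Slc16a6, a monocarboxylate carrier known for ketone bodies, moved like Slc16a1 at 6 h. It had 876.7 and 697.1 normalized reads in the later control, 255.9 and 208.8 with LPS at 6 h and 706.3 and 663.8 with both, and at 12 h 1307 and 955.2 with LPS. The 6 h LPS libraries lay below all others of the table. IL-10 during LPS changed it by 1.56 ± 0.21 at 6 h (adjusted p = 0.00088) and by -0.60 ± 0.12 at 3 h (adjusted p = 0.012). It overlaps Amz2 and Arsg on the other strand, and whether counting used strand is not given in the sources used here. Slc16a3, which encodes MCT4, passed in no comparison; at 6 h it had 1741 and 1300 with LPS against 2502 and 796.9 in the control, values that span the LPS libraries. Of the 5 carriers of this class none rose with LPS at any time by this fit, and 2, 4 and 3 fell at 3, 6 and 12 h. Over all genes, 27.6%, 28.4% and 23.7% rose at these times and 25.9%, 31.3% and 23.8% fell.

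**Figure D4:**
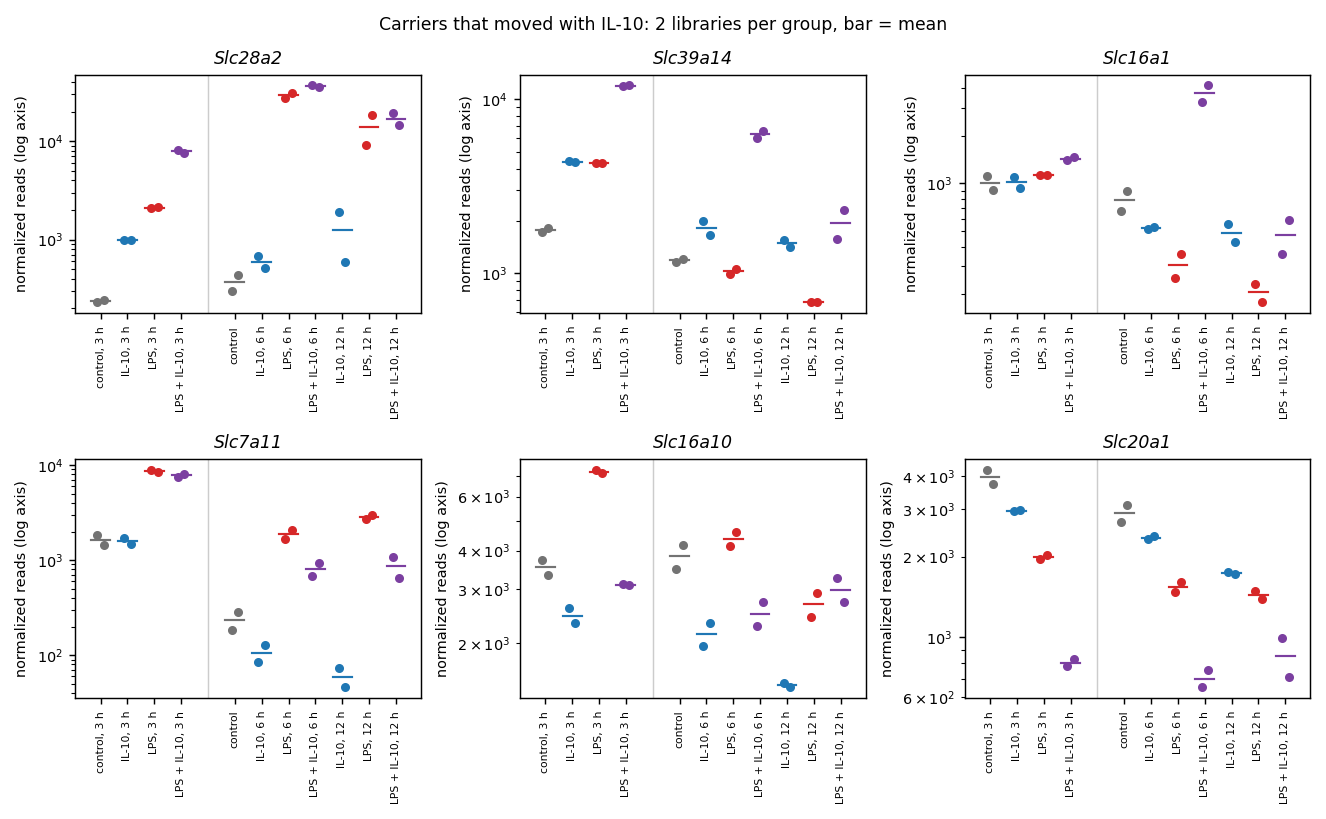
Normalized reads (log axis) of 6 carriers that moved with IL-10, in each of the 22 libraries; points are libraries, bars group means, and the grey line separates the tables. Slc16a1 stood at 3272 and 4147 with LPS and IL-10 at 6 h, above its other libraries, and Slc20a1 was lower with both agents than with LPS at each time.

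Amino acid carriers moved both ways with LPS. Slc7a11 encodes xCT, which exchanges cystine for glutamate. It had 1839 and 1457 normalized reads in the 3 h control and 8835 and 8508 with LPS. In the later table it had 183.6 and 286.3 in the control, 1674 and 2087 with LPS at 6 h and 2693 and 2976 at 12 h. All LPS libraries lay above the controls of their table, and the log2 change was 2.40 ± 0.12, 3.02 ± 0.34 and 3.62 ± 0.34 at the 3 times (adjusted p = 2.2e-07, 3.3e-05 and 2e-05).

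IL-10 acted on Slc7a11 in the opposite direction at the later times. With both agents it had 684.6 and 932.8 normalized reads at 6 h and 1083 and 646.5 at 12 h, and with IL-10 alone at 12 h 73.4 and 46.0, below the controls. IL-10 during LPS changed it at 6 h by -1.23 ± 0.34 and at 12 h by -1.76 ± 0.34 (adjusted p = 0.027 and 0.017), and by -0.15 ± 0.12 at 3 h, which did not pass. IL-10 alone changed it by -1.96 ± 0.34 at 12 h (adjusted p = 0.017). The 6 h call was lost without any 1 of the 4 libraries compared (-1.45 to -1.0), the 12 h call without either LPS 12 h library or the second with both (-1.83 to -1.39), and the call for IL-10 alone without the second control or either IL-10 12 h library (-2.29 to -1.63).

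Slc3a2 encodes the heavy chain that brings Slc7a11, Slc7a5 and Slc7a8 to the plasma membrane. It had 6910 and 5340 normalized reads in the later control, 12614 and 11519 with LPS at 6 h and 6853 and 5648 with both. Its log2 change with LPS was 0.52, 0.99 and 1.23 at the 3 times (adjusted p = 0.002, 0.00065 and 0.00032), but at 3 h and 6 h it turned to -0.18 and -0.36 under quantile normalization and to -0.07 and -0.15 at equal library totals. IL-10 during LPS changed it by -0.95 ± 0.18 at 6 h (adjusted p = 0.0045), which missed the threshold without the second library with both (-0.81). The light chain Slc7a8, for neutral amino acids, had 20745 and 18037 with LPS at 6 h and 8373 and 6024 with both against 8956 and 6659 in the control, and with IL-10 alone at 12 h 3550 and 3721. The light chain Slc7a5, the leucine carrier LAT1, missed the threshold with LPS at all 3 times (log2 changes of 0.24, -0.41 and 0.16).

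Slc15a3 rose with LPS at each time. It had 5936 and 7073 normalized reads in the 3 h control and 16684 and 16426 with LPS, and later 4902 and 3744 in the control, 69300 and 63469 with LPS at 6 h and 60326 and 78151 at 12 h. The log2 changes were 1.35 ± 0.10, 3.95 ± 0.26 and 4.0 ± 0.26 (adjusted p = 3.4e-06, 1.7e-06 and 2e-06). With IL-10 added at 6 h it had 38588 and 24009, a change of -1.12 ± 0.26 (adjusted p = 0.012) that was lost without the first LPS library or the second with both (-1.06 to -0.78). The gene overlaps Tmem132a on the other strand. Slc15a4, its relative in the lysosome that serves Toll-like receptor signalling, had 1704 and 1588 with LPS at 6 h against 845.8 and 721.3, a change of 1.07 ± 0.21 (adjusted p = 0.0011) that turned to -0.07 at equal library totals.

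Slc36a1, a lysosomal carrier of small neutral amino acids that was named after its values were seen, went down. It had 767.9 and 955.8 normalized reads in the 3 h control and 273.1 and 344.2 with LPS. Later it had 797.1 and 550.9 normalized reads in the later control, 151.8 and 112.6 with LPS at 6 h and 552.5 and 393.0 at 12 h, and the 3 h and 6 h libraries with LPS lay below their controls. LPS changed it at 3 h by -1.48 ± 0.16 and at 6 h by -2.33 ± 0.27 on the log2 scale (adjusted p = 4.2e-05 and 4e-05), and the 12 h change of -0.51 ± 0.27 did not pass.

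Slc1a5, the glutamine importer ASCT2, had 1353 and 976.6 normalized reads in the later control, 271.1 and 275.7 with LPS at 6 h and 411.7 and 159.4 at 12 h. Both LPS groups lay below the controls, with log2 changes of -2.07 ± 0.36 and -2.16 ± 0.36 (adjusted p = 0.00051 and 0.00073), and at 3 h the change of -0.18 ± 0.10 did not pass. Slc38a2, the importer SNAT2 that cells induce when short of amino acids, had 4795 and 3827 in the 3 h control, 1561 and 1541 with LPS and 903.3 and 956.8 with both. LPS changed it by -1.47 ± 0.11 at 3 h (adjusted p = 4.2e-06), and IL-10 during LPS by -0.74 ± 0.11 (adjusted p = 0.0027; lost without the first library with both, at -0.70). Slc43a2, a carrier of branched-chain and aromatic amino acids, had 7004 and 5104 in the later control, 275.4 and 274.1 with LPS at 6 h and 3830 and 1861 at 12 h. The 6 h change was -4.44 ± 0.33 and the 12 h change -1.16 ± 0.33 on the log2 scale (adjusted p = 2.8e-06 and 0.013), a low at 6 h that was partly gone at 12 h.

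Slc16a10, the aromatic amino acid carrier TAT1, was lower with IL-10 whether or not LPS was present at 3 h. It had 3731 and 3342 normalized reads in the control, 2590 and 2317 with IL-10, 7323 and 7170 with LPS and 3105 and 3096 with both, and none of these groups overlapped. The log2 change was 1.04 ± 0.09 for LPS (adjusted p = 1.2e-05), -0.53 ± 0.09 for IL-10 alone (adjusted p = 0.025) and -1.23 ± 0.09 for IL-10 during LPS (adjusted p = 3.6e-05), and the interaction was -0.70 ± 0.13 (adjusted p = 0.023). The call for IL-10 alone was lost without any 1 of the 6 treated libraries (-0.61 to -0.45), and the interaction without any 1 of 5 of them (-0.71 to -0.62). At 12 h it had 1474 and 1432 with IL-10 alone against 3475 and 4187, a change of -1.39 ± 0.18 (adjusted p = 0.0041; lost without the first IL-10 library, at -1.41), while during LPS the change was 0.16 ± 0.18.

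Of the 25 amino acid carriers LPS raised 12 and lowered 6 at 3 h, beside 27.6% and 25.9% of all genes. It raised 11 and lowered 9 at 6 h, beside 28.4% and 31.3%, and 8 and 4 at 12 h, beside 23.7% and 23.8%. With IL-10 during LPS none of the 25 was higher and 4 were lower at 3 h, beside 4.68% and 4.92% of all genes. At 6 h 4 were higher and 9 lower, beside 13.7% and 10.0%. At 12 h none was higher and 6 were lower, beside 2.68% and 2.23%. The 6 at 12 h were Slc7a11, Slc1a4, Slc7a1, Slc38a2, Slc7a5 and Slc38a1. Of these, Slc7a1, the cationic amino acid carrier of arginine, had 2276 and 1997 normalized reads with LPS and 1119 and 976.8 with both, a log2 change of -1.03 ± 0.15 (adjusted p = 0.0047) lost without the second library with both (-0.93). Slc38a1 was named after its values were seen.

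Slc28a2 had the largest rise of any carrier with IL-10 at 3 h, both without and with LPS. It imports purine nucleosides with sodium. At 3 h it had 229.9 and 243.2 normalized reads in the control, 985.4 and 980.0 with IL-10, 2094 and 2123 with LPS and 8207 and 7626 with both, and the 4 groups did not overlap. The log2 change was 3.15 ± 0.09 for LPS, 2.05 ± 0.09 for IL-10 without LPS and 1.91 ± 0.09 for IL-10 during LPS (adjusted p = 4.5e-09, 8.3e-06 and 2.5e-06). The interaction was -0.14 ± 0.12 and missed the threshold.

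At 6 h and 12 h Slc28a2 had 27352 and 30963 and then 9184 and 18504 normalized reads with LPS against 301.6 and 440.0 in the later control, log2 changes of 6.32 ± 0.47 and 5.16 ± 0.47 (adjusted p = 3e-06 and 1.6e-05). With both agents it had 36894 and 35623 at 6 h and 19249 and 14678 at 12 h, and the IL-10 changes of 0.32 ± 0.47 and 0.37 ± 0.47 did not pass. IL-10 alone changed it by 0.70 ± 0.47 at 6 h and 1.54 ± 0.47 at 12 h, which did not pass either (adjusted p = 0.96 and 0.16). With IL-10 alone at 12 h its mean was 1246.4 normalized reads (SD 920.3), against 370.8 in the later control. The closely related gene Gm14085 counted 1.6 to 111.2 normalized reads in this table, and how reads shared by both were counted is not given in the sources used here, so the split between them is uncertain. Slc29a3, the nucleoside carrier of lysosomes, had 1544 and 1548 with LPS at 6 h against 789.6 and 822.9, a change of 0.94 ± 0.17 (adjusted p = 7e-04) that turned to -0.20 at equal library totals. With LPS at 12 h it had 1716 and 1891 and with both 2532 and 3506, an IL-10 change of 0.72 ± 0.17 (adjusted p = 0.037) lost without any 1 of 11 libraries (0.49 to 0.80). Slc29a1, an equilibrative carrier of the plasma membrane, passed with LPS at 12 h only (-1.40 ± 0.36, adjusted p = 0.0084), not without the first control or the second LPS library (-1.27 to -0.79). The class of carriers of nucleosides or related compounds held Slc28a2, Slc29a1, Slc29a3, Slc17a9 and Slc43a3. Of these 5, LPS raised 2 and lowered none at 3 h, beside 27.6% and 25.9% of all genes. It raised 2 and lowered 2 at 6 h, beside 28.4% and 31.3%, and 2 and 3 at 12 h, beside 23.7% and 23.8%.

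Among ion carriers, the zinc importer Slc39a14 was raised by IL-10 at every time in LPS-treated cells. At 3 h it had 1727 and 1812 normalized reads in the control, 4414 and 4355 with IL-10, 4280 and 4326 with LPS and 11944 and 12007 with both. The groups with a single agent lay side by side and the group with both well above them. The log2 change was 1.28 ± 0.08 for LPS, 1.31 ± 0.08 for IL-10 and 1.48 ± 0.08 for IL-10 during LPS (adjusted p = 7.9e-07, 4.3e-05 and 4.2e-06). In the later table it had 1163 and 1216 in the control, 997.5 and 1056 with LPS and 6012 and 6545 with both at 6 h, and 686.1 and 681.1 and 1573 and 2324 at 12 h. LPS no longer raised it, and at 12 h it was lower than the control (-0.80 ± 0.19, adjusted p = 0.0053). IL-10 during LPS raised it at 6 h by 2.61 ± 0.19 and at 12 h by 1.48 ± 0.19 (adjusted p = 2.4e-05 and 0.0023). The interaction at 6 h was 2.00 ± 0.27 (adjusted p = 0.0032).

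The other zinc carriers differed from it. Slc39a8, an importer, had 478.6 and 589.9 normalized reads in the later control, 277.6 and 285.5 with LPS at 6 h and 201.0 and 116.1 at 12 h, log2 changes of -0.91 ± 0.26 and -1.79 ± 0.26 (adjusted p = 0.01 and 0.00032; the 6 h call was lost without the second control, at -0.76). With IL-10 alone at 3 h it had 642.3 and 574.6 against 426.4 and 388.9 (0.58 ± 0.11, adjusted p = 0.035), lost without any 1 of the 6 treated libraries (0.50 to 0.66). Slc30a1, which exports zinc from the cell, had 1451 and 1663 with LPS at 6 h and 1747 and 1930 at 12 h against 501.1 and 674.2 (1.42 ± 0.18 and 1.66 ± 0.18, adjusted p = 8.1e-05 and 6e-05), and IL-10 during LPS passed at no time. Slc30a4, which loads zinc into vesicles, had 1951 and 1856 with LPS at 3 h and 3535 and 3563 with both, an IL-10 change of 0.90 ± 0.12 (adjusted p = 0.0013).

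Both copper carriers rose with LPS. Slc31a2, a regulator of copper uptake, was higher at all 3 times. It had 929.4 and 906.7 normalized reads in the 3 h control and 3066 and 3214 with LPS, and 960.0 and 1027, 7713 and 8163 and 7500 and 9637 in the later control and with LPS at 6 h and 12 h. The log2 change was 1.77 ± 0.09, 3.00 ± 0.17 and 3.10 ± 0.17 (adjusted p = 2.1e-07, 6.9e-07 and 7.5e-07), and no IL-10 comparison passed. Slc31a1, the copper importer of the plasma membrane, was named after its values were seen and overlaps Cdc26 on the other strand. It had 3791 and 3032 in the 3 h control and 4787 and 4541 with LPS, and 2343 and 3722, 11031 and 13219 and 10447 and 14215 in the later groups. Its log2 change was 2.03 ± 0.25 at 6 h and 2.04 ± 0.25 at 12 h, with adjusted p of 5.4e-05 and 0.00011. The 3 h change of 0.46 ± 0.12 (adjusted p = 0.011) turned to -0.10 under quantile normalization and -0.13 at equal library totals, and missed the threshold without the first LPS library (0.42).

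The phosphate importer Slc20a1 fell with LPS and again with IL-10 during LPS. At 3 h it had 4196 and 3742 normalized reads in the control, 2946 and 2973 with IL-10, 1967 and 2022 with LPS and 780.9 and 828.6 with both. These groups did not overlap. IL-10 alone changed it by -0.42, -0.30 and -0.74 at 3, 6 and 12 h, and none of these changes passed (adjusted p = 0.059, 0.96 and 0.072). LPS changed it by -0.99, -0.92 and -1.01 at the 3 times (adjusted p = 1.3e-05, 0.0011 and 0.0011) and IL-10 during LPS by -1.31, -1.13 and -0.77 (adjusted p = 2.1e-05, 0.0019 and 0.035). The last was lost without any 1 of 9 of the 14 libraries (-0.82 to -0.53). The 3 h interaction was -0.89 ± 0.13 (adjusted p = 0.0056), lost without either LPS library or the first with both (-0.91 to -0.84).

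Slc12a7, a potassium-chloride cotransporter, had 1367 and 896.7 normalized reads in the later control, 2277 and 1855 with LPS at 6 h, 1456 and 1433 with IL-10 at that time, and 842.8 and 647.9 when both were added. The libraries with both lay below the others. IL-10 during LPS changed it by -1.47 ± 0.21 at 6 h (adjusted p = 0.0013), with an interaction of -1.86 ± 0.30 (adjusted p = 0.0078), and by 0.04 ± 0.21 at 12 h. Slc8a1, the sodium-calcium exchanger, had 321.4 and 330.1 with LPS at 12 h and 577.0 and 654.7 with both, an IL-10 change of 0.91 ± 0.16 (adjusted p = 0.01; lost without the second library with both, at 0.82). Of 45 ion carriers tested at 3 h, LPS raised 15 and lowered 5, beside 27.6% and 25.9% of all genes. Of 46 later, it raised 16 and lowered 15 at 6 h, beside 28.4% and 31.3%, and 12 and 15 at 12 h, beside 23.7% and 23.8%. The bicarbonate cotransporter Slc4a7 rose at 3 h (1.31 ± 0.13, adjusted p = 2.6e-05), and its 6 h call (1.18 ± 0.46, adjusted p = 0.044) was lost without any 1 of 9 libraries (0.76 to 1.34).

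Among mitochondrial carriers, Slc25a22 and Slc25a12 rose with LPS and Slc25a13 fell at the later times. Slc25a22, which imports glutamate, had 552.6 and 191.5 normalized reads in the later control, 6536 and 4278 with LPS at 6 h and 2337 and 970.2 with both. LPS changed it by 4.02 ± 0.49 (adjusted p = 5.6e-05) and IL-10 during LPS by -1.81 ± 0.49 (adjusted p = 0.025), the latter lost without either LPS 6 h library or the second with both (-2.12 to -1.18). Slc25a12, the aspartate-glutamate exchanger, had 1169 and 1100, 5000 and 4697 and 2523 and 2268 in the same groups, an LPS change of 2.10 ± 0.18 (adjusted p = 6.2e-06). Slc25a13, the second exchanger of this kind and named after its values were seen, had 1024 and 1216 in the later control, 279.7 and 306.7 with LPS at 6 h and 378.0 and 244.7 at 12 h. Its log2 change was -1.93 ± 0.21 and -1.87 ± 0.21 (adjusted p = 2.9e-05 and 7e-05), and 0.09 ± 0.10 at 3 h, which did not pass. Slc25a25, an ATP-magnesium and phosphate exchanger, was lowered at 6 h by IL-10 in the presence of LPS (-2.08 ± 0.36, adjusted p = 0.0033) and overlaps Naif1. Slc25a1, which exports citrate, had 1479 and 1509 with LPS at 6 h against 957.2 and 784.5, a change of 0.79 ± 0.17 (adjusted p = 0.0021) that turned to -0.355 at equal library totals. Slc25a36, a pyrimidine nucleotide carrier, had 331.8 and 419.3 with LPS and 850.3 and 1291 with both, an IL-10 change of 1.49 ± 0.30 (adjusted p = 0.0061) lost without the first LPS library or the second with both (1.19 to 1.32). Of the 36, LPS raised 5 and lowered 11 at 3 h, beside 27.6% and 25.9% of all genes. It raised 9 and lowered 11 at 6 h, beside 28.4% and 31.3%, and 6 and 9 at 12 h, beside 23.7% and 23.8%.

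Of the nucleotide sugar carriers and the vitamin or cofactor carriers, fewer rose than fell with LPS. Of the 18 Slc35 genes grouped as nucleotide sugar carriers, 1 was higher and 9 lower at 3 h, 2 and 10 at 6 h, and 2 and 8 at 12 h. That each of them carries nucleotide sugars was not shown. Of all genes, 27.6%, 28.4% and 23.7% were higher at these times and 25.9%, 31.3% and 23.8% lower. Of 8 vitamin or cofactor carriers, 1 was higher at each time and 3, 4 and 4 were lower. Slc19a2, the thiamine importer, had 454.7 and 438.7 normalized reads in the 3 h control and 96.8 and 78.6 with LPS (-2.34 ± 0.17, adjusted p = 3e-06). Slc23a2, the ascorbate importer, was the class's riser, with 5425 and 4977 and 13073 and 13230 (1.34 ± 0.08, adjusted p = 8.3e-07), and 9479 and 9467 with both.

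Among carriers of lipids and organic ions, Slco3a1 and Slc13a3 rose with LPS. Slco3a1, an organic anion transporter, had 50 and 51.2 normalized reads in the 3 h control and 511.4 and 558.9 with LPS, and later 95.5 and 78.7 in the control, 12781 and 12235 with LPS at 6 h and 6900 and 10012 at 12 h. The log2 change was 3.38 ± 0.13, 7.16 ± 0.50 and 6.57 ± 0.50 (adjusted p = 4.1e-08, 2.3e-06 and 5.5e-06). Slc6a4, the serotonin transporter, entered the 182 genes only through libraries with LPS, so its values in the later table are a description. It had no read in the later control, 180.0 and 174.6 normalized reads with LPS at 6 h and 77 and 141.3 at 12 h. Against a floor of 3 reads over the control group, its mean was at least 151.9-fold higher at 6 h and at least 93.5-fold higher at 12 h. Slc13a3, a dicarboxylate importer, had 105.8 and 67.5, 557.3 and 509.1 and 666.8 and 811.2 in the same groups (2.64 ± 0.29 and 3.10 ± 0.29, adjusted p = 2.7e-05 and 1.9e-05). The organic anion transporter Slco2b1 fell, with 368.1 and 314.2 in the later control and 8.7 and 17.9 with LPS at 6 h, and at 12 h its libraries differed (80.6 and 5.6).

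The interaction passed for few carriers: 0 higher and 3 lower of 181 at 3 h, beside 1.47% and 1.32% of all genes, 5 and 5 of 182 at 6 h, beside 4.46% and 2.26%, and 1 and 0 at 12 h, beside 0.148% and 0.234%. At 3 h the 3 were Slc20a1, Slc16a10 and Slc23a2. The 3 h count was 23 and 22 without the first and second control library, 0 without either LPS library or the first with both, and 1 without the first IL-10 library or the second with both. The 6 h count was 62 without the first control and 5 without the second, 4 without either LPS 6 h library or the first IL-10 6 h library, 3 without the second IL-10 6 h library or the second with both, 16 without the first with both, 19 without either LPS 12 h library and 5 without either IL-10 12 h library. At 12 h the 1 was Slc16a10 (1.55 ± 0.26, adjusted p = 0.033); the count was 0 without the second control, either LPS 6 h library, either IL-10 6 h library, the second 12 h library with both or the first IL-10 12 h library, 2 without the second LPS 12 h library and 4 without the first 12 h library with both.

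Between the LPS groups of 6 h and 12 h, 30 carriers were higher at 12 h and 9 lower, beside 11.1% and 4.67% of all genes. No controls matched in time entered this comparison, so changes with time in culture are not taken out. Of the 25 amino acid carriers, 8 were higher and 1 lower. The largest rises were those of Slc43a2 (3.28 ± 0.33, adjusted p = 0.00021), Slc26a11, an anion exchanger (2.64 ± 0.28, adjusted p = 0.00031), and Slc16a6 (2.27 ± 0.21, adjusted p = 0.00015). Slc26a11 had 15.2 and 19.6 normalized reads with LPS at 6 h and 138.4 and 92.3 at 12 h. With IL-10 alone its mean was 265.7 at 6 h and 470.2 at 12 h. The choline carrier Slc44a1 went down (-1.37 ± 0.32, adjusted p = 0.019; lost without either LPS 6 h library or the first LPS 12 h library, -1.49 to -0.90). The count of 39 was 12 and 16 without the first and second LPS 6 h library, 10 without the first LPS 12 h library and 23 without either IL-10 6 h library. The IL-10 effect during LPS itself differed between 12 h and 6 h for 4 of 182 carriers, 1 upwards and 3 downwards, beside 0.265% and 0.889% of all genes. That count was 9 and 8 without the first and second control, 16 without the second LPS 12 h library, 1 without the second LPS 6 h library or any 1 IL-10 library, and 0 without the first LPS library of either time, either 6 h library with both or the first 12 h library with both.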

How the data were processed

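RNA of 22 libraries was sequenced, and per the labels' protocols it was extracted with RNeasy columns and DNase and made into TruSeq libraries. Per the submitters' processing notes, the authors used TopHat2, DESeq2 and GRCm38; their versions, the annotation and the use of strand are not given there. Each deposited value is a normalized signal: a read count over that library's size factor. The 2 tables were normalized separately and are never tested against each other. Whole reads could be recovered for 100.0% of values (tolerance 0.01), from 9337222 to 31772075 per library, where 1 read is worth 0.588 to 2.17 normalized reads.

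The main test was limma 3.58.1 (R 4.3.3) with a mean trend on log2(normalized reads + 1), fitted over all groups of a table, two-sided, adjusted by Benjamini-Hochberg, with 0.05 as threshold. Genes needed 10 normalized reads in 2 libraries; 181 of the 182 carriers were tested at 3 h (not Slc39a12) and 182 later. The fold changes understate changes of low genes. Alternatives were another pseudocount (5), no filter, TMM, quantile and equal-total scaling, edgeR 4.0.16 and DESeq2 1.42.0 on recovered reads, only the groups compared, a replicate block, a GC trend and each library left out. The script was tested on simulated data.

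Named carriers are, among those called with a mean of at least 100 and replicates apart, the 5 largest rises and falls for LPS and for IL-10 during LPS and the 3 largest elsewhere, besides a panel of 28. Carriers that the rule names in 1 comparison are also given in others. The carriers, lists and classes were chosen with earlier results of these data known. Of the 182 genes, 32 overlap another coding gene. Coordinates and promoter sequences are from RefSeq GRCm38.p6, and lengths and overlaps from GENCODE M21.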

Additional observations from a re-analysis of the deposited data

Results flagged for a closer look

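The effect of IL-10 during LPS differed between 12 h and 6 h by the test of that difference, in which the shared control cancels, for 4 carriers. The log2 difference (12 h minus 6 h) was 1.52 for Slc12a7, -1.59 for Slc16a6 and -2.43 for Slc16a1, with limma adjusted p of 0.041, 0.033 and 0.021. For the zinc importer Slc39a12, which was below a mean of 100 and is named after its values were seen, it was -2.32 (adjusted p = 0.033). Leaving out single libraries ended these calls for Slc12a7 in 11, Slc16a6 in 10 and Slc16a1 in 5 of 14 cases. How the Slc39a12 call held under such changes was not tested.

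Levels with LPS also differed between 12 h and 6 h for carriers compared directly between the LPS groups. Without controls matched in time, a change in the LPS effect and a change with time in culture cannot be told apart. The log2 difference was 3.28 for Slc43a2, 2.64 for Slc26a11 and 2.27 for Slc16a6 (adjusted p = 0.00021, 0.00031 and 0.00015), which held without any 1 of the 14 libraries. It was -1.08 for Slc24a5, -1.17 for the zinc exporter Slc30a4 and -1.37 for Slc44a1 (adjusted p = 0.046, 0.032 and 0.019). These were lost without 1 library in 9, 5 and 3 of 14 cases.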

How the results depend on the processing

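Of 3451 values of named results under alternatives, 2997 kept direction and side of the threshold, 446 kept direction only and 8 reversed; 77 of 145 named calls held under every alternative. Under equal library totals, LPS changes reversed for Slc3a2 (-0.069 at 3 h, -0.153 at 6 h), Slc15a4 (-0.067), Slc29a3 (-0.202), Slc2a1 (-0.215) and Slc25a1 (-0.355) at 6 h, and under quantile normalization for Slc3a2 (-0.179 and -0.357). The LPS calls of Slc31a1, Slc25a13 and Slc36a1, named after their values were seen, are not in these counts. The 3 h LPS change of Slc31a1 also reversed under both scalings, as given above. The cause of the reversals was not tested.

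Counts of called carriers that moved over 1.5 times are as follows. With DESeq2 they were 7 for IL-10 alone at 3 h (main 4), 1 at 6 h (0) and 16 at 12 h (4), 22 for IL-10 during LPS at 12 h (14), 29 and 6 for the interaction at 6 h (10) and 12 h (1), and 16 for the 12 h minus 6 h difference of the IL-10 effect (4); edgeR gave 2 for the interaction at 12 h. With only the groups compared they were 2 and 0 for IL-10 alone at 3 h and 12 h, 62 and 0 for IL-10 during LPS at 3 h (27) and 12 h, 51 for LPS at 12 h (98), 0 for the interaction at 12 h and 1 for the difference. Without the low-value filter they were 2 for IL-10 alone at 12 h, 8 for IL-10 during LPS at 12 h, 5 and 0 for the interaction at 6 h and 12 h, and 2 for the difference. Quantile normalization gave 10 for IL-10 alone at 12 h, 6 and 2 for the interaction at 6 h and 12 h, and 23 for LPS at 12 h against 6 h (39). Equal totals gave 4 for IL-10 during LPS at 12 h and 2 for the difference. The second 12 h libraries alone gave 0 for IL-10 alone, 3 for LPS at 12 h against 6 h and 0 for the difference. With the GC trend removed, counts were 15, 1 and 20 for IL-10 alone at 3, 6 and 12 h, 46, 72 and 36 for IL-10 during LPS (27, 47 and 14), 19, 31 and 13 for the interaction (3, 10 and 1), 77 for LPS at 12 h against 6 h and 20 for the difference.

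Replicate numbers were not taken to pair libraries, since same-numbered libraries did not deviate together in every pair of groups (correlations from -0.411 to 0.703); among the control, LPS 6 h and LPS with IL-10 6 h groups they were 0.329 to 0.703, and among the 3 h control, LPS and IL-10 groups 0.126 to 0.273. With the replicate block, counts were 7 and 2 for IL-10 alone at 3 h and 12 h, 9 for IL-10 during LPS at 12 h, 9 and 6 for the interaction at 3 h and 6 h, and 1 for the difference. With the block and the GC trend removed they were 17 and 17 for IL-10 alone at 3 h and 12 h, 49 and 34 for IL-10 during LPS at 3 h and 12 h, 17, 27 and 9 for the interaction at 3, 6 and 12 h, 72 for LPS at 12 h against 6 h and 19 for the difference.

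Leaving out 1 library gave 70 to 117, 96 to 125 and 68 to 100 calls for LPS at 3, 6 and 12 h, 9 to 47, 14 to 70 and 1 to 17 for IL-10 during LPS, 2 to 37, 0 to 0 and 0 to 4 for IL-10 alone, 0 to 23, 3 to 62 and 0 to 4 for the interaction, 10 to 50 for LPS at 12 h against 6 h and 0 to 16 for the difference. A group left with 1 library is assumed to vary like the others. On recovered reads, edgeR called 93, 128 and 104 carriers for LPS at 3, 6 and 12 h (main 92, 124 and 98) and 26, 44 and 11 for IL-10 during LPS. Splits of higher and lower calls moved for IL-10 alone at 3 h (3 and 1) to 3 and 2 under quantile normalization and at equal totals, for the difference (1 and 3) to 0 and 2 at equal totals and 10 and 6 with DESeq2, for the interaction at 12 h (1 and 0) to 1 and 1 under quantile normalization and 4 and 2 with DESeq2, for IL-10 alone at 12 h (0 and 4) to 5 and 5 under quantile normalization, 1 and 2 at equal totals and 6 and 10 with DESeq2, for IL-10 during LPS at 12 h (6 and 8) to 8 and 5 under quantile normalization and 7 and 4 with edgeR, for the interaction at 6 h (5 and 5) to 7 and 4 with TMM, 4 and 2 under quantile normalization, 8 and 3 at equal totals and 7 and 3 with edgeR, and for LPS at 12 h against 6 h (30 and 9) to 43 and 3 at equal totals. With 2 libraries per group, small changes could be missed, and this differed between the tables. With IL-10 alone, Slc16a10 passed at 3 h with a log2 change of -0.53 ± 0.09 but not at 6 h with -0.84 ± 0.18.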
